A study of Homo sapiens with 4 samples.

Results

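The fibroblast growth factors (FGF), the platelet-derived growth factors (PDGF) and a set of receptor tyrosine kinases with their ligands were examined in KGN cells, a human line derived from a granulosa cell tumour. The set was drawn up with earlier results of these data known, and its rule uses gene symbols and no measured value: all numbered FGF genes, FGF and PDGF receptors, PDGF ligands, and 17 named receptors and ligands such as AXL, MERTK, KIT, MET and DDR1. The rule found 50 genes among the 17687 genes that the array table names, each measured by a single probe set. Clariom S Human arrays measured RNA in 4 groups with 1 array each. Cells received a control siRNA at 10 nM (siNC) or siRNAs against YAP and TAZ at 5 nM each (siYT). After 48 h both kinds of culture were given fresh medium without addition or with 0.5 mM 8Br-cAMP, an analogue of cyclic AMP that enters cells, for 24 h (siNC+8Br-cAMP and siYT+8Br-cAMP). All 4 cultures are the same single cell line, so the arrays describe 1 tumour-derived genotype.

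FGFs and PDGFs are secreted proteins that bring 2 receptor chains together at the cell surface, after which the receptors phosphorylate each other and recruit adaptors that start ERK, PI3K and PLC gamma signalling. AXL, MERTK and TYRO3 form the TAM family, whose ligands GAS6 and protein S bridge the receptor to exposed phosphatidylserine. The discoidin receptors DDR1 and DDR2 bind collagen, MET binds hepatocyte growth factor, and ROR1 binds Wnt5a. In the ovary, FGF2 acts on granulosa cell survival and PDGFs are made by granulosa cells and read by the stromal and theca cells around the follicle. YAP and TAZ, the coactivators that the Hippo pathway restrains, bind DNA through TEAD factors, and cyclic AMP is the second messenger of the gonadotropins.

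Values are deposited log2 signals. A difference was called when it was at least 1, which is 2-fold, and the higher array reached 6.22, the median of all gene values, here the level filter. For calls in both media or after both siRNAs, and for the difference of differences, it was enough that any of the 4 arrays reached it. With 1 array per group the spread between cultures is unknown, and the number of arrays limits the precision of every difference. As a secondary measure an additive model with a siRNA and an 8Br-cAMP term was fitted to all genes with limma, and rose and fell are used only for genes that passed it at an adjusted p of 0.05. Its only residual is the difference between the paired effects, so it is not a test between replicate cultures. Array medians over genes lay between 6.19 and 6.24. YAP1 had values of 9.48 (siNC) and 6.80 (siYT) in plain medium and of 9.46 and 6.29 with 8Br-cAMP. WWTR1, which encodes TAZ, was at 7.58 and 5.45, and at 9.13 and 5.35 with 8Br-cAMP, so both targeted RNAs were lower in both media. Of 9 measured granulosa markers 6 reached the level filter on at least 1 array, and 4 reached 6.95, the 95th percentile of the negative control probe sets. STAR, GJA1 and INHBA reached the level filter on all 4 arrays. CYP19A1 (5.04), FSHR (3.82) and NR5A1 (5.42) lay under the filter in siNC and reached it only on treated arrays. FOXL2, INHA and AMHR2 stayed under it on all arrays. Of 5 endothelial markers 0 reached it.

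Of the 50 genes, 23 reached the level filter on at least 1 array, and 17 of these also spanned a range of at least 1 over the arrays. Those 17 genes are described one by one. Another 6 reached the filter with a range under 1, and 27 stayed under it throughout. A probe set signal depends on its probes, so levels are compared between arrays and not between genes.

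**Figure D1:**
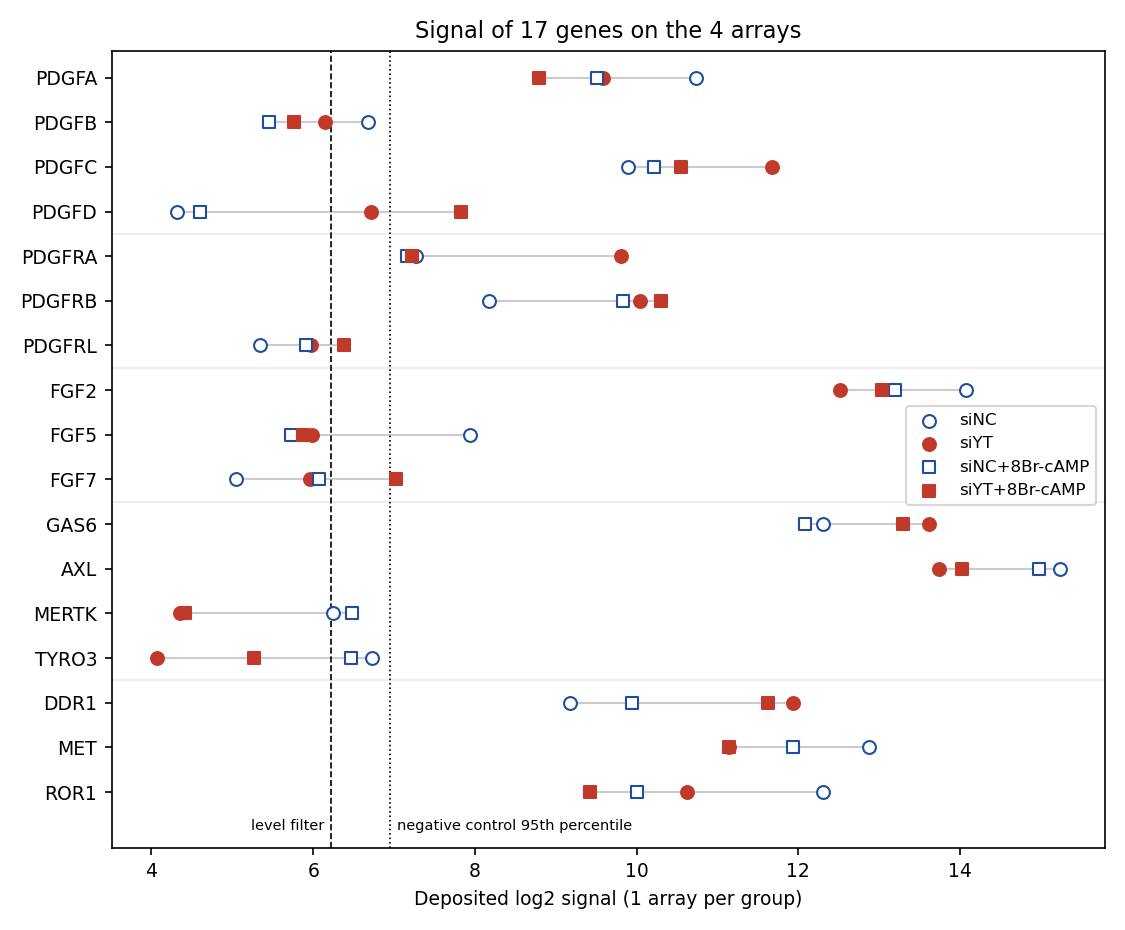
Deposited log2 signal (x axis) of the 17 genes that reached the level filter and spanned at least 1, with 1 symbol per array: circles without and squares with 8Br-cAMP, open for siNC and filled for siYT. The filled symbols of PDGFC, PDGFD, PDGFRB, PDGFRL, GAS6 and DDR1 lie to the right of both open ones. Those of FGF2, AXL, MERTK, TYRO3 and MET lie to the left. For PDGFRA the siYT array, at 9.81, stands alone.

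YAP/TAZ siRNA was first compared with control siRNA in each medium. Without 8Br-cAMP, 14 of the 50 genes (28%) were called, against 14.9% of all genes. Higher were 6, beside 7.60% of all genes, and lower 8, beside 7.32%. With 8Br-cAMP, 5 (10%) were called, against 11.5% of all genes. Higher were 3, beside 5.52% of all genes, and lower 2, beside 5.94%. In both media in the same direction, 3 were higher (PDGFD, DDR1 and GAS6) and 2 lower (MERTK and TYRO3), together 10% against 7.33% of all genes (3.44% higher and 3.89% lower). The median difference of the 50 genes was 0.07 without and 0.15 with 8Br-cAMP, beside 0.02 and 0.06 over all genes. By limma 3 members rose and 5 fell, 16% in all against 8.97% of all genes (4.30% higher and 4.67% lower). On another scale, log2 of the linear value plus 32, which compresses low signals, limma called 0 of all genes, with 12 members (24%) and 22.4% of all genes at an unadjusted p under 0.05. With a level filter of 6.95, the 95th percentile of the negative control probe sets, 0 members were called lower in both media, because MERTK and TYRO3 lie under it.

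PDGF ligands took different directions. PDGFD, which is secreted as a latent dimer and acts mainly on PDGF receptor beta, was at 4.31 after siNC and 6.72 after siYT in plain medium, and 4.60 and 7.83 with 8Br-cAMP. Both siYT arrays lay above both siNC arrays, by 2.41 without 8Br-cAMP (5.30-fold) and by 3.22 with it (9.33-fold). PDGFD rose with the siRNA by 2.81 on average (SE 0.33, adjusted p = 0.000637 by limma). Its siNC values lie under the level filter, so these folds start near the background, and the siYT value without 8Br-cAMP is below the negative control limit of 6.95.

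PDGFC, the other ligand that is activated by cleavage outside the cell, was at 9.89 after siNC and 11.67 after siYT in plain medium, and 10.21 and 10.55 with 8Br-cAMP. The siYT array without 8Br-cAMP was the high one. The siRNA difference was 1.78 without and 0.33 with 8Br-cAMP, and PDGFC did not pass limma (adjusted p = 0.126). PDGFA, the classical ligand of PDGF receptor alpha, went the other way: 10.73 after siNC and 9.58 after siYT in plain medium, and 9.51 and 8.80 with 8Br-cAMP. Its highest value was in the siNC culture without 8Br-cAMP and its lowest in siYT+8Br-cAMP. The siRNA differences of PDGFA were -1.15 and -0.71 (limma, adjusted p = 0.102). PDGFB, which binds all PDGF receptor dimers, was at 6.67, 6.15, 5.45 and 5.77 in the same order of arrays, and only the siNC value reached the level filter.

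Both PDGF receptor kinases were higher after YAP/TAZ siRNA in plain medium. PDGFRA, which encodes receptor alpha, was at 7.27 after siNC and 9.81 after siYT in plain medium, and 7.16 and 7.22 with 8Br-cAMP. Only siYT without 8Br-cAMP was high: the siRNA difference was 2.53 (5.80-fold) without and 0.06 with 8Br-cAMP. PDGFRB, which encodes receptor beta, was at 8.17 in siNC and between 9.83 and 10.30 on the other 3 arrays. Here the siNC array was the low one, and the siRNA difference was 1.87 (3.66-fold) without and 0.47 with 8Br-cAMP. Since the siRNA differences in the media were far apart, the SE of the mean was wide, 0.49 for PDGFRA and 0.38 for PDGFRB, and neither passed limma (adjusted p = 0.147 and 0.0888). PDGFRB did pass with cyclic loess and when only genes over the level filter entered the fit, and its adjusted p by limma ran from 0.0378 to 0.249 over the alternatives. PDGFRL, a related protein without a kinase domain, was at 5.34 after siNC and 5.98 after siYT in plain medium, and at 5.92 and 6.38 with 8Br-cAMP, and was not called.

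Some markers of other cell types differed with the siRNA as well. Of 6 theca and stromal fibroblast markers, 5 reached the level filter, and LUM and DCN were the ones higher by at least 1 in both media, by 5.34 and 4.45 for LUM and by 3.38 and 3.86 for DCN. COL1A2 differed by 1.34 and 0.80, COL1A1 by 0.11 and -0.99, THY1 by -0.61 and -0.58, and CYP17A1, the defining theca enzyme, stayed between 4.49 and 4.91. The summed log2 signal of these 6 was 54.3 after siNC and 64.1 after siYT in plain medium, and 53.3 and 61.0 with 8Br-cAMP. That of 9 granulosa markers was 58.3 and 75.4, and 78.0 and 91.5. Among them CYP19A1 was at 5.04 and 14.26, and 14.26 and 17.56, the largest siRNA difference of these markers in each medium. FSHR and GJA1 were also higher by at least 1 in both media, and STAR and INHBA only with 8Br-cAMP. The highest FSHR value, 6.63 in siYT+8Br-cAMP, lies below the negative control limit, so the sizes of the FSHR differences depend on the background. INHA, FOXL2, AMHR2 and NR5A1 differed by less than 1 in both media. Among 4 immune markers CD68, a lysosomal protein, was higher by 1.92 and 2.82, while PTPRC, the marker of all leukocytes, was at 4.12 or less. The labels name a single cell line, and the part of these marker differences in the PDGF receptor values was not tested. In RNA from whole cultures, a change in the number of cells of a type and in the RNA per cell cannot be told apart.

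**Figure D2:**
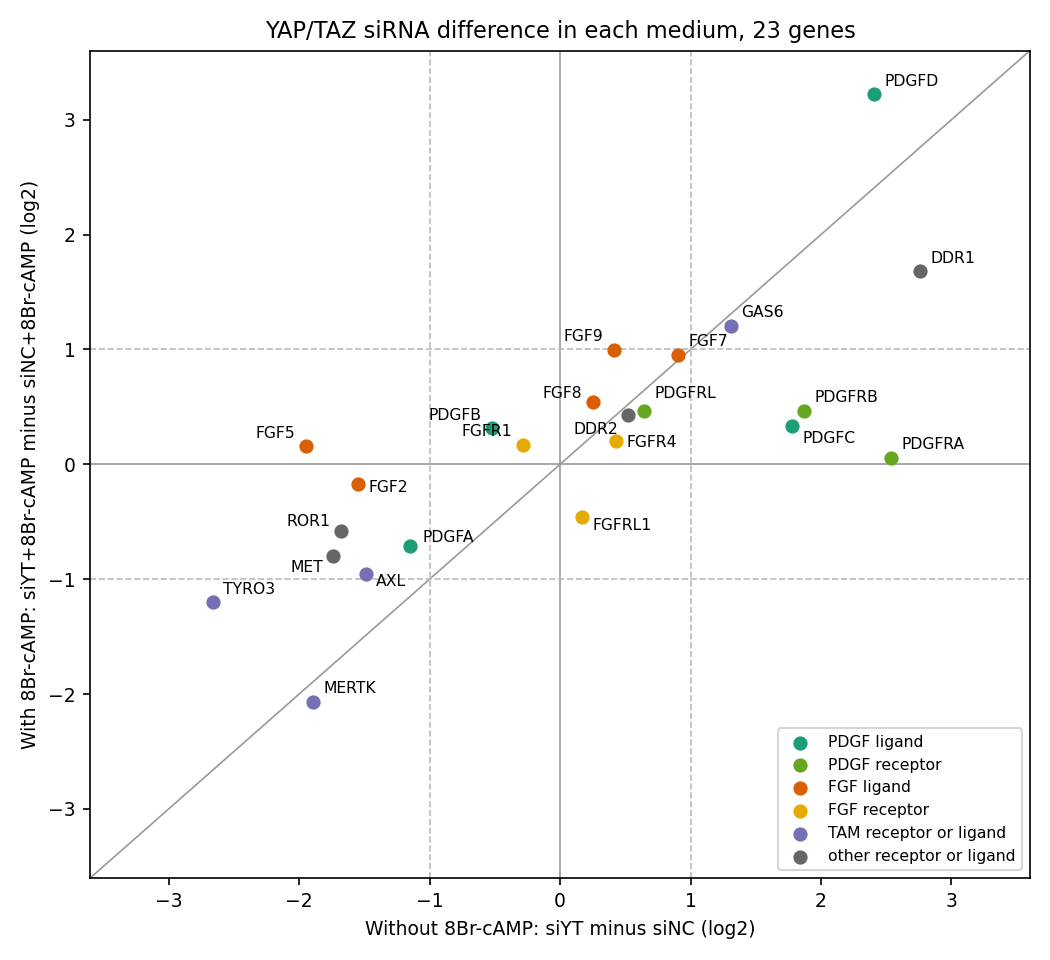
Log2 difference between siYT and siNC without 8Br-cAMP (x axis) and with it (y axis) for the 23 genes over the level filter, coloured by role, with the diagonal of equal differences and dashed lines at 1 and -1. PDGFD, DDR1 and GAS6 lie past 1 on both axes and MERTK and TYRO3 past -1. PDGFRA, FGF2 and FGF5 lie near 0 on the y axis, and PDGFC and PDGFRB lie at 0.33 and 0.47 on it. The axes share no array.

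Of 21 FGF ligands, 5 reached the level filter. FGF2, or basic FGF, was at 14.07 after siNC and 12.52 after siYT in plain medium, and 13.20 and 13.03 with 8Br-cAMP. It was lowest in siYT, and the siRNA difference was -1.55 without and -0.17 with 8Br-cAMP. FGF5, a ligand known for ending the growth phase of hair follicles, was at 7.94 in siNC and between 5.72 and 5.99 on the other 3 arrays, under the level filter. Its siRNA difference was -1.95 without and 0.16 with 8Br-cAMP. Neither passed limma for the siRNA, with adjusted p = 0.211 for FGF2 and 0.282 for FGF5.

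FGF7, or keratinocyte growth factor, was at 5.05 after siNC and 5.96 after siYT in plain medium, and 6.07 and 7.02 with 8Br-cAMP. Each treatment was followed by a value about 1 higher, whether or not the other was present, and only the culture with both reached the filter. The siRNA differences were 0.91 and 0.95, just short of the threshold (limma, adjusted p = 0.0945). As log2 of the linear value plus 32 they were 0.53 and 0.71, and the 8Br-cAMP differences 0.61 and 0.78. The siRNA term of FGF7 passed only when genes over the level filter alone entered the fit. FGF9 missed the size threshold by less, with 0.41 without and 0.997 with 8Br-cAMP. FGF8 lay between 7.40 and 8.08. The other 16 FGF ligands stayed under the level filter, with values from 3.35 to 5.94, and include the endocrine factors FGF19, FGF21 and FGF23 and the intracellular factors FGF11, FGF12 and FGF13.

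Among the FGF receptors, FGFR1, FGFR4 and the decoy receptor FGFRL1, which lacks the kinase, reached the level filter. In each of the comparisons 0 of the 5 receptor genes were called. Of all genes, 8.06% to 14.9% were called in the siRNA and 8Br-cAMP comparisons and 8.39% for the difference of differences. For a set of 5 genes, 0 is near these shares. FGFR1 was at 8.40 after siNC and 8.11 after siYT in plain medium, and 7.44 and 7.61 with 8Br-cAMP, with siRNA differences of -0.28 and 0.17. FGFR4 ranged from 6.93 to 7.36 and FGFRL1 from 8.01 to 8.69. FGFR2 and FGFR3 stayed at 4.73 and 3.12 or less.

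In the TAM family all 3 receptors were lower and the ligand higher after YAP/TAZ siRNA. AXL was at 15.23 after siNC and 13.74 after siYT in plain medium, and 14.97 and 14.02 with 8Br-cAMP. Both siYT arrays lay under both siNC arrays, by -1.49 without and -0.95 with 8Br-cAMP. MERTK, which mediates the uptake of dying cells, was at 6.24, 4.35, 6.48 and 4.41 in the same order, with differences of -1.89 and -2.07. TYRO3 was at 6.73, 4.07, 6.46 and 5.27, with differences of -2.66 and -1.20. By limma AXL fell by 1.22 (SE 0.32, adjusted p = 0.0393), MERTK by 1.98 (SE 0.31, adjusted p = 0.00317) and TYRO3 by 1.93 (SE 0.38, adjusted p = 0.0114). The call for AXL was lost when the prior of the model was estimated by maximum likelihood (adjusted p = 0.0519, with a range of 0.0123 to 0.0910 over the alternatives). All values of MERTK and TYRO3 stayed below that negative control limit of 6.95, so the sizes of their differences depend on the background.

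GAS6, the ligand of these receptors, was at 12.31 after siNC and 13.62 after siYT in plain medium, and 12.09 and 13.29 with 8Br-cAMP. The siYT arrays were higher by 1.31 and 1.21, and GAS6 rose by 1.26 (SE 0.31, adjusted p = 0.0301 by limma). PROS1, which encodes protein S, the other TAM ligand, was at 9.62 and 11.86 without and at 10.04 and 11.83 with 8Br-cAMP. It rose as well (limma, adjusted p = 0.00321).

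Among the other receptors, DDR1 was higher and MET lower after YAP/TAZ siRNA. DDR1 was at 9.18 after siNC and 11.94 after siYT in plain medium, and 9.94 and 11.62 with 8Br-cAMP. The siYT arrays were higher by 2.76 (6.76-fold) without and by 1.68 (3.21-fold) with 8Br-cAMP, and DDR1 rose by 2.22 (SE 0.35, adjusted p = 0.00336 by limma). DDR2, the second collagen receptor, ranged only from 11.98 to 12.52. MET was at 12.88 after siNC and 11.14 after siYT in plain medium, and 11.93 and 11.14 with 8Br-cAMP, so it reached the same low value after siYT in both media. The differences were -1.74 and -0.80, and MET fell by 1.27 (SE 0.34, adjusted p = 0.0446 by limma), a call that was lost with the maximum likelihood prior (adjusted p = 0.0611, with a range of 0.0146 to 0.142 over the alternatives). Its ligand HGF stayed between 4.02 and 4.34.

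ROR1 was at 12.31 after siNC and 10.63 after siYT in plain medium, and 10.00 and 9.43 with 8Br-cAMP. It was highest in the siNC culture without 8Br-cAMP and lowest in siYT+8Br-cAMP, and the siRNA differences were -1.68 and -0.58 (limma, adjusted p = 0.0783). The siRNA term of ROR1 passed with cyclic loess, with an eBayes trend and when only genes over the level filter were fitted, and its adjusted p by limma ran from 0.0342 to 0.201 over the alternatives. TEK, the angiopoietin receptor of endothelial cells, was at 5.16 after siNC and 3.81 after siYT in plain medium, and 4.88 and 3.18 with 8Br-cAMP. It fell by 1.52 (SE 0.31, adjusted p = 0.0132 by limma) although every value lies under the level filter, so it was not called by size. INSR, KIT, RET, NTRK2, MST1R, ROR2 and TIE1 also stayed under the filter on all arrays.

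**Figure D3:**
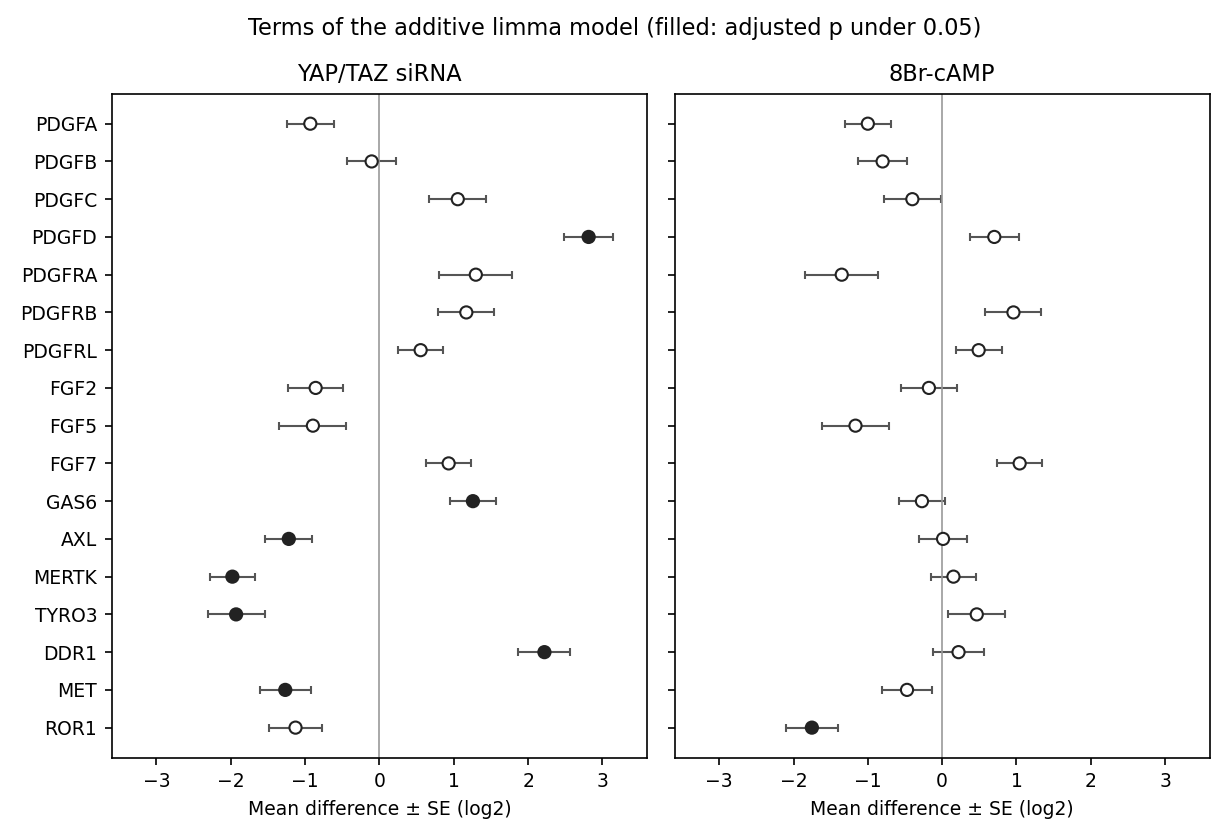
Mean difference with its standard error (x axis, log2) for the siRNA term (left) and the 8Br-cAMP term (right) of the additive limma model, for the 17 genes described one by one. Filled points passed at an adjusted p of 0.05. For the siRNA these are PDGFD, GAS6, AXL, MERTK, TYRO3, DDR1 and MET, and for 8Br-cAMP ROR1 alone.

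Sequence upstream of the start sites was examined for the 5 genes called in both media and for AXL, which was called in plain medium only and was added after its values were seen, because YAP and TAZ reach DNA through TEAD and cyclic AMP acts through CREB. RefSeq windows of 250 bases upstream of a start (GRCh38.p14) were found for 39 of the 50 members, 72 windows in all. The motifs were GGAATG for TEAD, the palindrome TGACGTCA for a full cyclic AMP response element and its part TGACG, each searched on both strands. Printed here are the only window of PDGFD, of GAS6 and of MERTK and, for DDR1, TYRO3 and AXL, which have several starts, the window that holds a match, chosen after the matches were seen. Capitals mark matches to these motifs on either strand.
PDGFD, chr11:104164148-104164397, - strand: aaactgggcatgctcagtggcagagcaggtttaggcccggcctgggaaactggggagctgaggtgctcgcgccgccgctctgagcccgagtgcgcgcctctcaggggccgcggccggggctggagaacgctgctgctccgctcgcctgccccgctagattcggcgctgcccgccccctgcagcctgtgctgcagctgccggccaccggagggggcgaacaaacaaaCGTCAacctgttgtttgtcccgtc
DDR1, chr6:30882684-30882933, + strand: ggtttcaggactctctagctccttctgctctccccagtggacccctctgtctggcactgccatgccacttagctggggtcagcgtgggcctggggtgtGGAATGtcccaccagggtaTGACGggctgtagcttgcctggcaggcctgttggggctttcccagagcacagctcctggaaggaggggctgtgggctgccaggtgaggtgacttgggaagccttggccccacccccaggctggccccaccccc
GAS6, chr13:113864077-113864326, - strand: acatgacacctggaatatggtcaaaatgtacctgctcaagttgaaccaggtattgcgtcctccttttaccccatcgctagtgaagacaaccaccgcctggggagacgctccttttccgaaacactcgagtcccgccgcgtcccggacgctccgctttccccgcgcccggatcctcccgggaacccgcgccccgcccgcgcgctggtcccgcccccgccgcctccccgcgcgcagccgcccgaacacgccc
MERTK, chr2:111898357-111898606, + strand: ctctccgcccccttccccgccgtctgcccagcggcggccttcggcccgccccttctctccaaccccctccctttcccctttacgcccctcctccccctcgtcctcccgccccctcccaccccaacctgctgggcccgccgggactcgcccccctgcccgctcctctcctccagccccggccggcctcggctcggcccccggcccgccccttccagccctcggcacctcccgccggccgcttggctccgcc
TYRO3, chr15:41558962-41559211, + strand: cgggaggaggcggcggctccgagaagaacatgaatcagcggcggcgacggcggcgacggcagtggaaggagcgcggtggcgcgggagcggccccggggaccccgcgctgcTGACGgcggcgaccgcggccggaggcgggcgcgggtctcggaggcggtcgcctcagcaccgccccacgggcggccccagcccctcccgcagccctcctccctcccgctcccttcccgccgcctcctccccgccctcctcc
AXL, chr19:41226505-41226754, + strand: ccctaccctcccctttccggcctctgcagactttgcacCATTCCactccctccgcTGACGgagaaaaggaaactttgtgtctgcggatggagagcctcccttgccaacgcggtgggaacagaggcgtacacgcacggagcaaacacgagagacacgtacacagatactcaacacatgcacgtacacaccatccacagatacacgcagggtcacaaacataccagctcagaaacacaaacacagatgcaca

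The DDR1 window, 1 of 8 for this gene, holds GGAATG with its first base 152 bases before the start and TGACG 133 bases before it. In the AXL window, 1 of 2, CATTCC starts 212 bases and TGACG 195 bases before the start. PDGFD has CGTCA 24 bases before its start, TYRO3 has TGACG 140 bases before 1 of its 2 starts, and the GAS6 and MERTK windows hold none of the motifs. Over all 72 member windows GGAATG or its complement occurred in 11.1%, beside 11.9% of all 35116 windows, and TGACG in 18.1% beside 21.2%. The full element was found upstream of FGF6 alone, 1.39% of member windows beside 1.65% of all. These member shares lie near those of all windows.

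8Br-cAMP was then compared with plain medium after each siRNA. These differences share their arrays with the siRNA differences above. After siNC 5 of the 50 genes (10%) were called, against 8.06% of all genes (4.32% higher and 3.74% lower): PDGFRB was higher and PDGFA, PDGFB, FGF5 and ROR1 were lower. After siYT 5 were called as well, against 8.21% of all genes (4.06% higher and 4.15% lower): PDGFD and FGF7 higher, PDGFRA, PDGFC and ROR1 lower. In the same direction after both siRNAs were FGF7, higher, and ROR1, lower, 4% of members against 3.05% of all genes (1.74% higher and 1.31% lower). The median difference of the members was -0.19 after siNC and 0.01 after siYT, beside -0.03 and -0.02 over all genes. By limma 1 member, or 2%, passed, against 1.81% of all genes (1.15% higher and 0.662% lower).

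ROR1 was that member. It differed by -2.31 after siNC (4.94-fold) and by -1.20 after siYT (2.30-fold), with a mean decrease by 1.75 (SE 0.35, adjusted p = 0.0362 by limma). The call was lost with the maximum likelihood prior (adjusted p = 0.0663, with a range of 0.00337 to 0.219 over the alternatives). FGF7 was 1.02 higher after siNC and 1.07 higher after siYT (limma, adjusted p = 0.127), and its values after siNC lie under the level filter. PDGFA differed by -1.22 and -0.78 (adjusted p = 0.157). PDGFB differed by -1.22 after siNC, from a level below the negative control limit, and by -0.38 after siYT.

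The 8Br-cAMP differences of the PDGF receptors were unlike after the control and the YAP/TAZ siRNA. PDGFRB differed by 1.66 after siNC and by 0.26 after siYT. PDGFRA differed by -0.11 after siNC and by -2.59 (6.02-fold) after siYT. PDGFC differed by 0.32 after siNC and by -1.12 after siYT, and PDGFD was 0.29 and 1.11 higher. FGF5 differed by -2.22 after siNC and -0.11 after siYT. Among the TAM receptors, AXL and MERTK differed by at most 0.28 in size, TYRO3 by -0.27 after siNC and 1.20 after siYT, under the level filter, and GAS6 by -0.22 and -0.32.

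**Figure D4:**
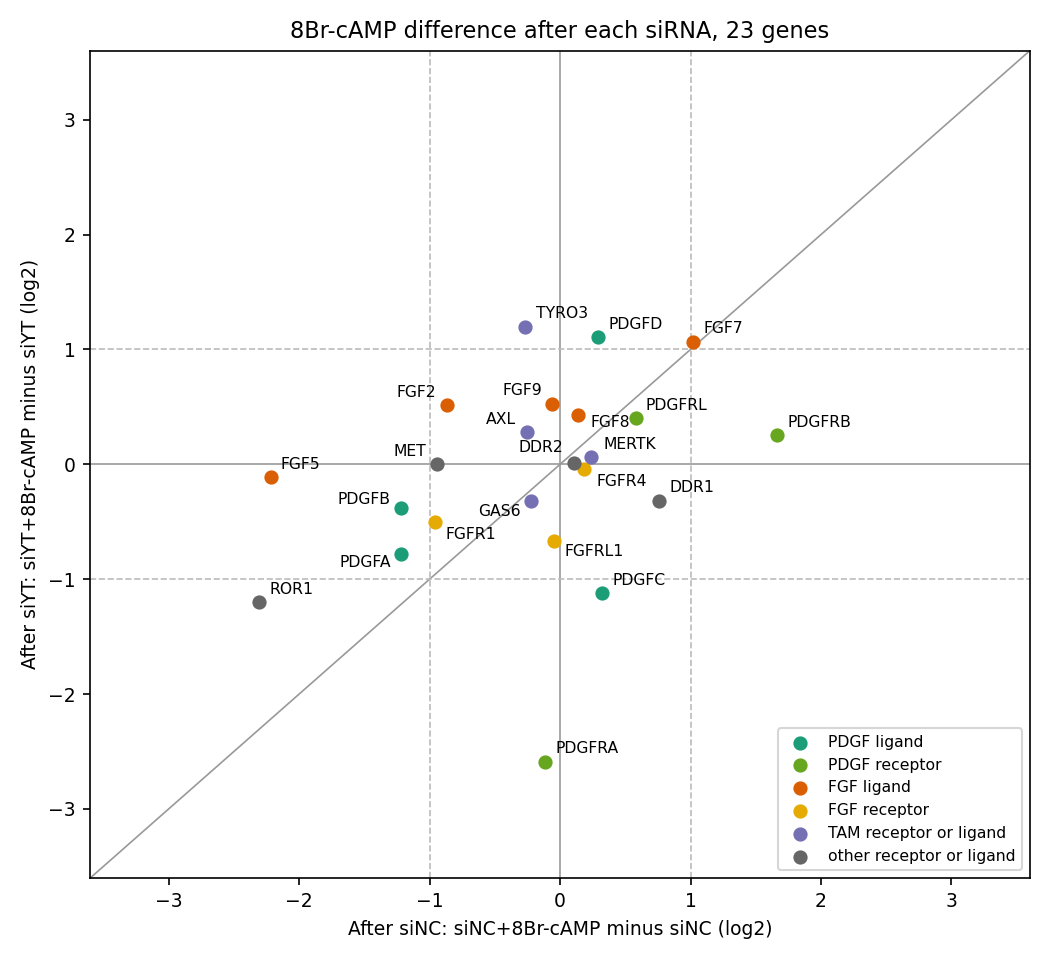
Log2 difference between cultures with and without 8Br-cAMP after siNC (x axis) and after siYT (y axis) for the 23 genes over the level filter, coloured by role, with the diagonal of equal differences and dashed lines at 1 and -1. FGF7 lies past 1 and ROR1 past -1 on both axes, PDGFRA is low only on the y axis, and FGF5 and PDGFRB lie far out only on the x axis. The axes share no array.

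The difference of differences subtracts the siRNA difference in plain medium from the one with 8Br-cAMP, which equals subtracting the 8Br-cAMP response of siNC cells from that of siYT cells. It was called for 8 of the 50 genes (16%), against 8.39% of all genes (3.57% positive and 4.82% negative). Values were positive for FGF5 (2.11), TYRO3 (1.46), FGF2 (1.38) and ROR1 (1.10), which were all lower after siYT in plain medium. They were negative for PDGFRA (-2.48), PDGFC (-1.45), PDGFRB (-1.41) and DDR1 (-1.07), which were all higher after siYT in plain medium. The plain-medium siRNA difference enters this quantity with a minus sign and shares the siNC and siYT arrays with it, so the opposite signs are partly fixed by how it is computed. For FGF5 both arrays with 8Br-cAMP lie under the level filter. The additive model gives no test of this quantity, which is its residual. Nearest to the threshold lay DDR1 inside and MET, at 0.94, outside it. With each array centred they changed places, with -0.98 for DDR1 and 1.04 for MET.

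The genes around these receptors were read from lists of co-receptors and further ligands, of adaptors, and of other receptor tyrosine kinases. Of 29 measured ligands and co-receptors, 2 were called higher and 1 lower in both media for the siRNA, and 2 higher and 0 lower after both siRNAs for 8Br-cAMP. These are 10.3% and 6.90% of the list, beside 7.33% and 3.05% of all genes. FLRT3, a membrane protein that binds FGF receptors, was at 6.74 after siNC and 9.73 after siYT in plain medium, and 10.04 and 11.46 with 8Br-cAMP, and it rose with both treatments (limma, adjusted p = 0.00637 for the siRNA and 0.00991 for 8Br-cAMP). GFRA1, the GDNF co-receptor of RET, fell after the siRNA, with differences of -2.84 and -2.86 (limma, adjusted p = 0.000381), while RET stayed at 4.45 or less. BDNF, the ligand of NTRK2, rose with 8Br-cAMP, by 2.77 after siNC and 3.68 after siYT (limma, adjusted p = 0.00101), while NTRK2 stayed at 2.69 or less.

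Among 23 adaptors and effectors, GAB2, a docking protein for PI3K and SHP2, was the 1 gene called in both media for the siRNA. This is 4.35% of the list, beside 7.33% of all genes. GAB2 differed by 1.17 and 1.94 (limma, adjusted p = 0.0158), but only its siYT+8Br-cAMP value, 7.08, reached the level filter. Its values without 8Br-cAMP, 4.61 after siNC and 5.78 after siYT, lie under the filter. GRB10, an adaptor that restrains insulin receptor signalling, was the 1 gene called after both siRNAs for 8Br-cAMP, with -1.07 and -1.37 (limma, adjusted p = 0.0847). This is again 4.35% of the list, beside 3.05% of all genes. Of 18 other receptor tyrosine kinases, 0 were called in both media for the siRNA. IGF1R, the IGF-1 receptor, was called higher after both siRNAs for 8Br-cAMP, by 1.55 and 1.28 (limma, adjusted p = 0.0510). It makes up 5.56% of that list, beside 3.05% of all genes. The shares of 4.35% and 5.56% rest on 1 gene each. By limma the siRNA term called 4 of the ligands and co-receptors, 2 in each direction (13.8%, beside 8.97% of all genes), and the 8Br-cAMP term called 2, both higher (6.90%, beside 1.81%). Of the adaptors and effectors, limma called 1 for the siRNA (4.35%) and 0 for 8Br-cAMP. Of the other receptor tyrosine kinases it called 0 for either term. These lists were drawn up with earlier results of the same arrays known. At an unadjusted p of 0.05, the additive model called 17 of the 50 members (34%) for the siRNA, beside 22.2% of all genes, and 10 (20%) for 8Br-cAMP, beside 14.7%.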

How the data were processed

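RNA of 4 KGN cultures, 1 per group, was measured on Clariom S Human arrays. The authors deposited log2 signals, made by RMA using Affymetrix Expression Console per the submitters' processing notes. Software versions and the annotation's genome build are not given in the sources used here. Signals spanned 1.39 to 19.36. Those above 16, the log2 of a 16-bit scanner's maximum, are not plain brightness, so a fold may not be a ratio of signals. GEO's platform annotation named 1 gene for 17709 of 24351 probe sets. Probe sets of a gene were averaged, which gave 17687 genes.

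Differences were taken between arrays and called by size and level. limma 3.58.1 in R 4.3.3 fitted siRNA and 8Br-cAMP terms to all genes (1 residual and 9.24 prior degrees of freedom), with Benjamini-Hochberg adjustment. On simulated data eBayes recovered the changed genes but set the prior degrees of freedom too high and called more unchanged genes than its threshold allows. A maximum likelihood prior (7.32 degrees of freedom) was therefore added after the data were seen. Members and lists were chosen with earlier results of these data known. Genes were described in full where the highest array reached the level filter and the range was at least 1, and list genes were named when called for either treatment at both levels of the other. Promoter sequences come from RefSeq (GRCh38.p14), with no windows for FGF4, FGF8, FGF9, FGF16, FGF17, FGF19, FGF20, FGFR1, PDGFB, PDGFC and PDGFRL. Alternatives were no level filter, a filter from negative controls, array centring, cyclic loess, log2 of the linear value plus 32, the highest probe set, a fit of genes over the filter and an eBayes trend.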

Additional observations from a re-analysis of the deposited data

Results flagged for a closer look

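Opposite signs of the same contrast were seen for 5 genes whose difference of differences was also called by size and level filter. These differences were not tested. The siRNA difference of FGF5 was -1.95 without and 0.16 with 8Br-cAMP, a difference of 2.11. The 8Br-cAMP difference turned its sign between siNC and siYT for the other 4. It was -0.27 and 1.20 for TYRO3 (difference 1.46), -0.87 and 0.51 for FGF2 (1.38), 0.32 and -1.12 for PDGFC (-1.45) and 0.76 and -0.32 for DDR1 (-1.07). The smaller value of each pair is at most 0.51 in size. For FGF2 and DDR1 neither 8Br-cAMP difference reached 1 in size, and the TYRO3 values after siYT lie under the level filter.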

How the results depend on the processing

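No paired analysis was possible because each group has 1 array and the labels give no replicate numbers; for the same reason no array could be left out. Of 425 alternative values for the differences of the 17 genes, 406 kept their call, 13 lost it and 6 gained one. The only sign that turned was that of MET for 8Br-cAMP after siYT, an uncalled value near 0 (0.05 with centred arrays). Of 204 alternative values for their terms in the additive model, 187 kept their call, 11 lost it and 6 gained one, and the uncalled 8Br-cAMP term of AXL turned from 0.01 to -0.11 with cyclic loess. On the plus-32 scale limma called 0 members higher and 0 lower for either term, and 0 of all genes, with 12 and 5 members (24% and 10%) at an unadjusted p under 0.05, beside 22.4% and 15.7% of all genes. The siRNA means of AXL (-1.22), MET (-1.26), GAS6 (1.25) and DDR1 (2.17) on that scale lie close to those on the log2 scale. Those of PDGFD (1.80 beside 2.81), MERTK (-1.11 beside -1.98) and TYRO3 (-1.14 beside -1.93) were smaller in size. With that scale 1 member was called lower for the siRNA with 8Br-cAMP and 1 in both media, and 0 higher for 8Br-cAMP after siYT or after both siRNAs. With the filter from negative controls, 0 members were lower for the siRNA with 8Br-cAMP and 0 in both media. Without a level filter, 2 were higher for 8Br-cAMP after siNC, 4 after siYT, and 7 had a positive difference of differences. With centred arrays, 5 were higher for the siRNA with 8Br-cAMP (FGF7 and FGF9 were added) and 0 for 8Br-cAMP after both siRNAs. The siRNA term called 5 members higher when only genes over the filter were fitted, and with the maximum likelihood prior 3 lower, while the 8Br-cAMP term then called 0 lower. A higher level filter removes genes near the background by construction; the cause of the other changes was not tested. Taking the highest probe set in place of the mean could not change a member, since each has a single one, and is not counted here.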
